A study of Mus musculus with 32 samples.

Results

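Ribosome biogenesis genes encode the proteins that transcribe ribosomal RNA, cut, fold and modify it, and assemble it with ribosomal proteins into the 2 subunits of the ribosome. The 44 genes described here were taken by gene symbol, and 42 of them were measured by a probe set of their own on 32 Affymetrix Mouse Gene ST 1.0 arrays. Noc2l and Ppan had no probe set assigned to them alone and were not described further. The whole table held 35556 probe sets, of which 23410 carried at least 1 gene symbol and were tested.

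The arrays covered 4 lines of Ba/F3, a murine pro-B cell line that depends on interleukin-3 for growth, with 8 arrays per line. Ba/F3-gp130 was the parental line and carries transduced human gp130, a receptor chain that the other 3 lines share because they were derived from it. Ba/F3-IL-12Rβ1-IL-23R carries the natural receptor chains of interleukin-23, Ba/F3-SyCyR(IL-23/2A) carries a pair of synthetic cytokine receptors, in which nanobodies against fluorescent proteins replace the outer part of the chains, and Ba/F3-SyCyR(IL-23R) carries a synthetic receptor made from IL-23R alone. Each receptor was represented by 1 retrovirally transduced and selected line, so that a receptor and other properties of its line cannot be told apart. Cells had been kept without serum for 3 h and then treated for 60 min with ligand at 100 ng/ml or with control medium. The paper states 4 independent biological replicates for its comparisons in the receptor lines and does not describe those of the parental line. The line comparisons here count 8 arrays per line as independent, which arrays from a shared culture would not be. The p-values rest on an estimate of spread that is shared by the arrays of all 4 lines. For the parental line, the spread between its arrays may be only technical. These 4 lines are called here the parental line, the natural receptor line, the SyCyR(IL-23/2A) line and the SyCyR(IL-23R) line. The labels give each array a line and a number from 13 to 20 but no treatment. The odd and even numbers were therefore compared only as numbers, and what they stand for was not derived from the values.

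Ribosome production starts in the nucleolus, where RNA polymerase I transcribes a long precursor of ribosomal RNA. Box C/D and box H/ACA ribonucleoproteins, guided by small nucleolar RNAs, methylate and pseudouridylate this precursor. Large assemblies then mature the small and the large subunit separately. Growth factors and cytokines drive this programme in proliferating cells, and the transcription factor Myc is a known activator of many of its genes through a DNA element called the E-box.

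To show what the starts of these genes look like, the 250 bases before an annotated transcript start were read from RefSeq promoters of build GRCm38.p6. Promoters were available for 39 of the 44 genes, and these windows were searched on both strands for the E-box CACGTG, which is its own reverse complement, and for CCGGAAG, a core bound by ETS factors. The E-box occurred in 1 of 39 genes (2.56%), compared with 6.86% of all 27025 genes with a promoter. CCGGAAG occurred in 10 of 39 (25.6%), compared with 7.83% of all genes. The 10 genes with CCGGAAG were Gar1, Nhp2, Nolc1, Polr1c, Heatr1, Pwp2, Ddx10, Nop2, Nip7 and Grwd1. Nop2 was the gene with the E-box, starting 60 bases before the transcript start. Nop2 and Nip7 are shown as genes with a motif, and Utp20 and Bysl as genes that lacked both motifs in this window and had the widest difference from the parental line in 1 of the receptor lines each. The windows are Nop2 at chr6:125131633-125131882 and Nip7 at chr8:107056627-107056876, both on the plus strand, and Utp20 at chr10:88826815-88827064 and Bysl at chr17:47611493-47611742, both on the minus strand. Each sequence is written 5′ to 3′ in the direction of the gene, and capitals mark CACGTG and CCGGAAG.
Nop2: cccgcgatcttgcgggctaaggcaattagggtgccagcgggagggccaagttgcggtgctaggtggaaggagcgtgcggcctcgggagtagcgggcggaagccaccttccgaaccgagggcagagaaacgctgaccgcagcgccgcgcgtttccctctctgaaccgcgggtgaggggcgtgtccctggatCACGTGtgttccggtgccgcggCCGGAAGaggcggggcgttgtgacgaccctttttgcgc
Nip7: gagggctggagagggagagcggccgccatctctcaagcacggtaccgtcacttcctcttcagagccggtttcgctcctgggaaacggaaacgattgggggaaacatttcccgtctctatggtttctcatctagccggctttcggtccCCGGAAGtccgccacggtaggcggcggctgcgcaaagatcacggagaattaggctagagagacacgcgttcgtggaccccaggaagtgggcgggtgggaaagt
Utp20: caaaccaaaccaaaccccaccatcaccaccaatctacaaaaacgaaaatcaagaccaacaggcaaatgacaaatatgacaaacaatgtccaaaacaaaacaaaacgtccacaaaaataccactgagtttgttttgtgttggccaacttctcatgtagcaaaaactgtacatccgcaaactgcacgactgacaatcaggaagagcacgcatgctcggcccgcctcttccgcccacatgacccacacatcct
Bysl: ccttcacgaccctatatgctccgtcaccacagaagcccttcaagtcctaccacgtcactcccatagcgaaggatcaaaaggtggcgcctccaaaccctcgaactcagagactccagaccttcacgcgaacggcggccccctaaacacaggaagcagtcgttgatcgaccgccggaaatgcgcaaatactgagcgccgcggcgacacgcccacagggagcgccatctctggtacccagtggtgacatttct
A match describes these letters and does not show that a factor was bound there.

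All values are log2 RMA values, which the authors had normalized across the arrays. They compare 1 gene between arrays and do not rank genes against each other. The mean of each of the 42 genes exceeded 7.04, which was the median over the means of all probe sets. The shares of all tested probe sets given below include dimmer ones, so they are not shares among genes of like level. The spread within a line was small, with a median SD over the 42 genes of 0.0927 in the parental line, 0.146 in the natural receptor line, 0.159 in the SyCyR(IL-23/2A) line and 0.106 in the SyCyR(IL-23R) line (n = 8 arrays each). The corresponding medians over all tested probe sets were 0.0998, 0.134, 0.110 and 0.121. Bop1, which acts with Pes1 and Wdr12 in a complex for large subunit maturation, had the widest SD of the 42 in every line, from 0.222 to 0.309.

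The cells were checked against markers of the named cell type. Because the values do not rank genes against each other, 7.04 serves here only as a rough mark. Of 13 measured pro-B cell genes, Cd79a, Cd79b, Ptprc, Vpreb2 and Igll1 had medians above 7.04 in every line. Igll1 was close to this mark, with line medians of 7.17 to 7.30. The other 8 were below it in all lines, among them Ebf1, Pax5 and Rag1. Of the other cell types, 3 of 10 mast cell and basophil genes (Gata2, Fcer1a and Prss34), 3 of 12 granulocyte and macrophage genes, 1 of 5 T cell genes and 4 of 5 erythroid and megakaryocyte genes were above it in every line. The mean of the mast cell and basophil list ranged from 7.16 to 7.41 over the arrays of the parental line, from 6.87 to 7.12 in the natural receptor line, from 7.06 to 7.42 in the SyCyR(IL-23/2A) line and from 7.21 to 7.37 in the SyCyR(IL-23R) line. The mean of the granulocyte and macrophage list ranged from 6.81 to 7.03, 6.53 to 6.74, 6.87 to 7.20 and 6.98 to 7.45 in the same order. Both lists reached their lowest values in the natural receptor line. The means of the pro-B cell list lay between 6.93 and 7.15 over all arrays, those of the T cell list between 6.14 and 6.50 and those of the erythroid and megakaryocyte list between 8.71 and 9.21. The part of these levels in the line differences was not tested.

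Some arrays stood apart for these genes. In the SyCyR(IL-23/2A) line, array 15 lay below the median of its line for 42 of 42 genes, with a median deviation of -0.32, and array 16 for 40 of 42, with a median deviation of -0.25. The median of all values of these arrays was 7.10 and 7.01, within the range of 6.95 to 7.10 of their line, and their mean correlations with the other arrays of the line were 0.9932 and 0.9946. On these arrays, 105 other ribosome biogenesis genes deviated by a median of -0.19 and -0.10 and cytosolic ribosomal protein genes by -0.03 and 0.04. Arrays 17 and 18 were on the high side in every line, with median deviations of 0.11 and 0.13 in the parental line, 0.09 and 0.10 in the natural receptor line, 0.06 and 0.05 in the SyCyR(IL-23/2A) line, and 0.06 and 0.05 in the SyCyR(IL-23R) line. Results that rest on arrays 15 and 16 of the SyCyR(IL-23/2A) line are given below with and without them.

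**Figure D1:**
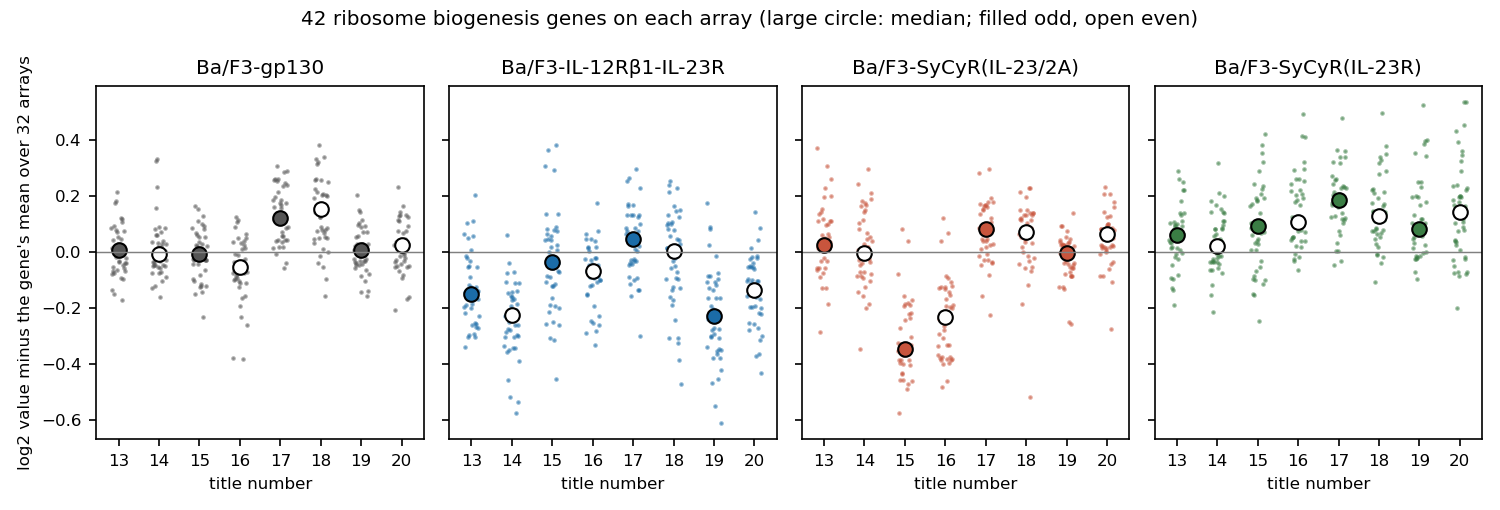
Deviation of the 42 genes from their means over 32 arrays, on the log2 scale, by line and title number. Small points are genes and large circles their median on an array (filled for odd and open for even numbers). The lowest circles are array 15 (-0.35) and array 16 of the SyCyR(IL-23/2A) line, array 19 of the natural receptor line (-0.23) and array 14 of that line (-0.23).

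The first question was whether the lines differ in the level of these genes over all 8 arrays of each. In the natural receptor line compared with the parental line, 16 of 42 genes were lower and none was higher at an adjusted p under 0.05 (limma with Benjamini-Hochberg adjustment over all tested probe sets, as in all comparisons here). Of all tested probe sets, 10.4% were lower and 7.48% higher. The estimate was below 0 for 38 of 42 genes, with a median of -0.12 on the log2 scale, while the median over all tested probe sets was 0.01. In either direction 17.9% of all probe sets passed. None of the 42 genes reached 1.5-fold, while 2.91% of all probe sets passed and did. With every array centred on its own median 10 of the 42 were lower, beside 15.2% of all probe sets in either direction. Nop56, Rrp9, Nop14, Nob1, Pes1 and Nop2 then did not pass. In bulk RNA, fewer cells with a transcript and less of it per cell cannot be told apart.

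Of the factors for the small subunit, 6 of 15 were lower in this comparison. Utp20, a scaffold protein of the small subunit processome, ranged from 9.29 to 9.67 in the natural receptor line (median 9.54) and from 9.91 to 10.19 in the parental line (median 9.99). Every array of the receptor line was below every array of the parental line, and the difference of -0.49 (SE 0.080, n = 8 and 8) had an adjusted p of 1.1e-05. Heatr1, Wdr43, Rrp9, Nop14 and Nob1, further small subunit factors, fell by 0.12 to 0.25. The call for Nob1 ended without array 19 of the natural receptor line (-0.09, adjusted p 0.055), and that for Rrp9 without any of 4 arrays (-0.14 to -0.16). Wdr75, Pwp2, Noc4l, Rcl1, Ddx10, Bysl, Rrp12, Tsr1 and Pno1 did not pass.

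Of the 13 large subunit factors measured, 8 were lower. Mrto4, a placeholder for a ribosomal stalk protein, ranged from 10.04 to 10.75 (median 10.39) compared with 10.54 to 10.89 in the parental line (median 10.65). Its arrays overlapped between the lines, and the difference was -0.27 (SE 0.084, adjusted p 0.018), or -0.22 (adjusted p 0.055) without array 19 of the natural receptor line. Rrp1b fell by 0.26 (SE 0.074, adjusted p 0.0087) and Grwd1, a chaperone that escorts a ribosomal protein of the large subunit, by 0.25 (SE 0.057, adjusted p 0.0011). Without arrays 17 and 18 of every line neither passed, with differences of -0.24 (adjusted p 0.08) and -0.19 (adjusted p 0.059). Wdr12, Nop16, Nop2, Nip7 and Pes1 fell by 0.12 to 0.23. A second probe set of Wdr12 gave -0.30 (adjusted p 0.0037). The calls for Nop2 and Pes1 each ended when any of 9 single arrays was left out, with differences from -0.16 to -0.22 and from -0.10 to -0.12. Rrs1, Bop1, Noc3l, Ebna1bp2 and Ddx56 did not pass. For Rrs1 the difference was 0.03 with a 95% confidence interval from -0.14 to 0.19.

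Among the remaining roles, Polr1a, the catalytic subunit of RNA polymerase I, ranged from 9.02 to 9.38 (median 9.16) compared with 9.35 to 9.65 (median 9.47). The highest of the receptor line's arrays just overlapped the lowest of the parental line, and the difference was -0.33 (SE 0.075, adjusted p 0.0012). Polr1b, the partner of Polr1a in the core of the enzyme, differed by -0.17 (adjusted p 0.072), and Polr1c, a subunit that RNA polymerases I and III share, did not pass either. Nop56, a core protein of the box C/D particles, fell by 0.18 (SE 0.061, adjusted p 0.042), a call that ended without any of 9 single arrays (-0.14 to -0.18). Its partners Nop58 and Fbl, the methyltransferase of the particle, did not pass. Neither did any of the 3 box H/ACA proteins Dkc1, Gar1 and Nhp2. The nucleolar proteins Ncl and Npm1 differed by -0.02 and 0.03, with intervals from -0.14 to 0.10 and from -0.08 to 0.15.

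**Figure D2:**
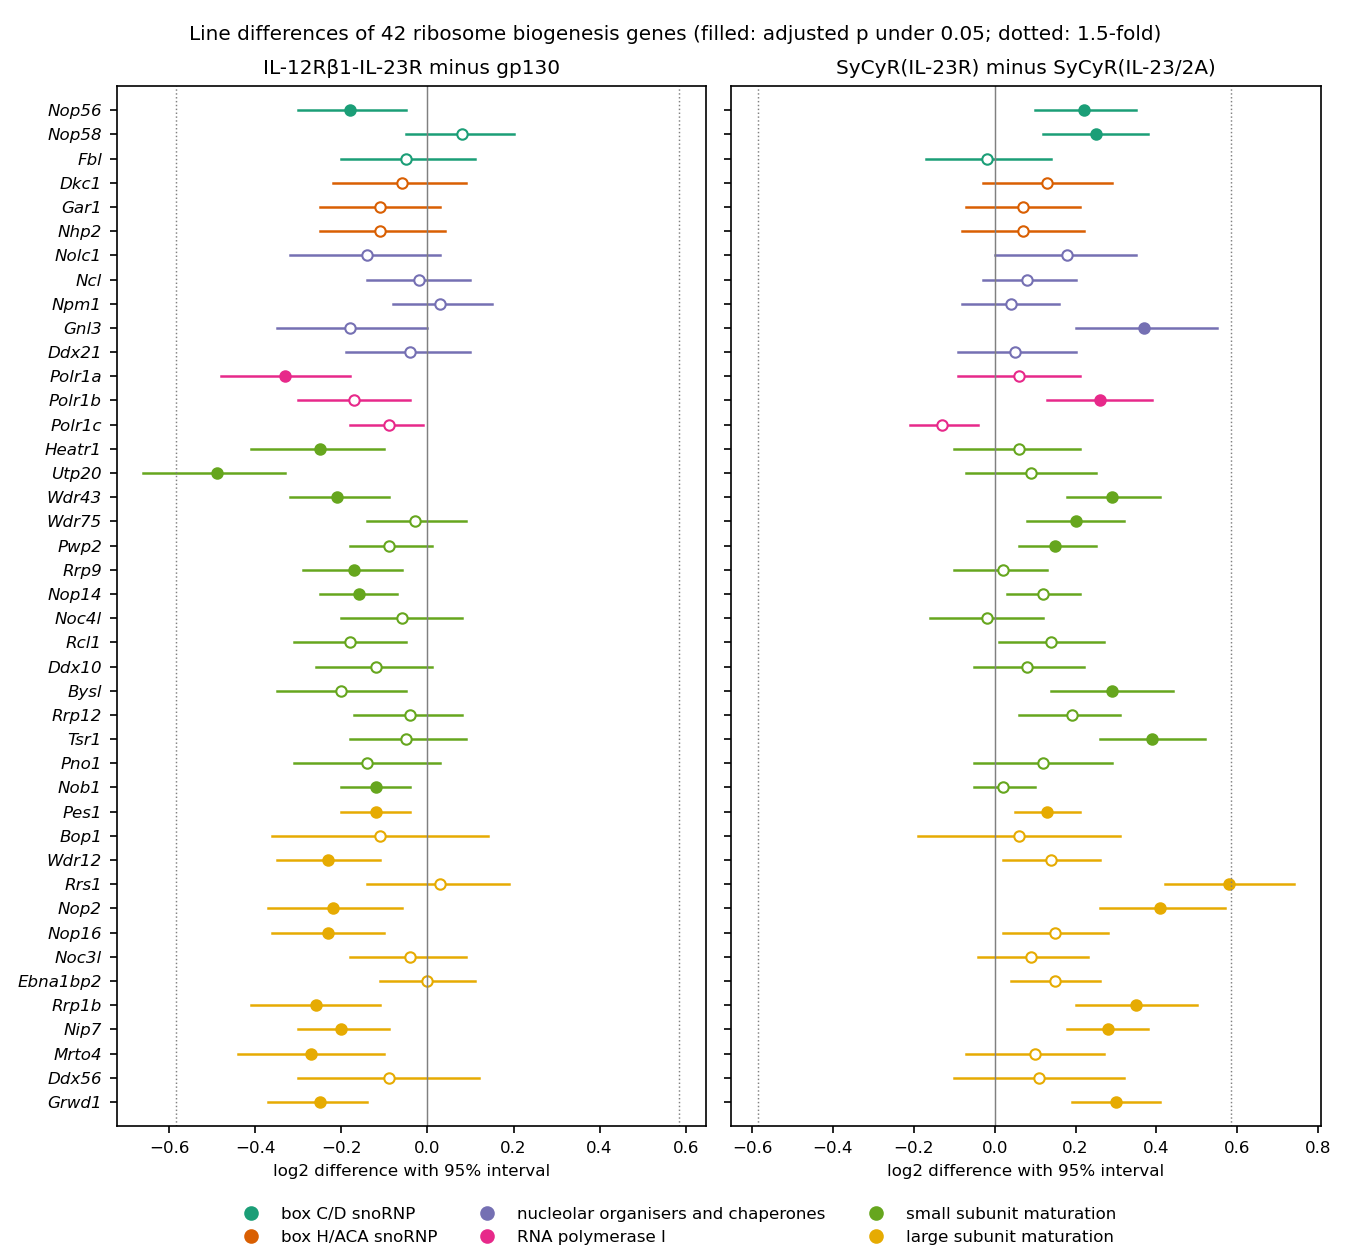
Log2 difference of each of the 42 genes with its 95% confidence interval, the natural receptor line minus the parental line on the left and the SyCyR(IL-23R) line minus the SyCyR(IL-23/2A) line on the right (8 arrays per line). Filled points had an adjusted p under 0.05, colours give the roles and dotted lines mark 1.5-fold. The 16 filled points on the left lie below 0 and the 15 on the right above 0.

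In the SyCyR(IL-23/2A) line compared with the parental line, 5 of 42 genes were lower and 1 was higher, compared with 3.88% and 2.35% of all tested probe sets (6.23% in either direction). None reached 1.5-fold, compared with 0.56% of all. The median was -0.08, with 30 of 42 estimates below 0. With every array centred on its own median the counts were 2 lower and 2 higher, beside 6.04% of all probe sets in either direction. Polr1b, Wdr43 and Tsr1 were then no longer lower. With quantile normalization the counts were 5 lower and 2 higher, while 2538 of all probe sets passed instead of 1459. Without arrays 15 and 16 of this line none was lower, 1 was higher and the median was -0.01, while 5.2% of all probe sets passed in either direction. The gene that then passed was Fbl, with a difference of 0.31 (adjusted p 0.015). With all arrays Fbl differed by 0.23 (adjusted p 0.069), while a second, dimmer probe set of Fbl gave 0.02 (adjusted p 0.94).

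Gnl3, or nucleostemin, a nucleolar GTPase of proliferating cells, ranged from 10.83 to 11.24 (median 10.98) in the SyCyR(IL-23/2A) line and from 11.21 to 11.45 (median 11.32) in the parental line. The lines overlapped only at the edge, and the difference was -0.34 (SE 0.087, adjusted p 0.014), or -0.29 (adjusted p 0.065) without the 2 arrays. Rrs1, which helps to bring the ribonucleoprotein of the smallest ribosomal RNA into the large subunit, ranged from 8.46 to 8.79 (median 8.71) compared with 8.82 to 9.11 (median 8.98). All arrays of the synthetic receptor line were below those of the parental line. The difference was -0.31 (SE 0.081, adjusted p 0.017), or -0.28 (adjusted p 0.064) without the 2 arrays. Tsr1, a late factor of the small subunit, differed by -0.26 and Wdr43 by -0.23, and without the 2 arrays both differed by -0.17 (adjusted p 0.10 and 0.076). Polr1b fell by 0.21, and its difference was -0.10 (adjusted p 0.27) without these arrays. Polr1c was higher by 0.14 (adjusted p 0.046), and the difference was 0.14 with an adjusted p of 0.071 without them. Leaving out single arrays ended the call for Polr1b for 9 and that for Polr1c for 16 of the 32 arrays, with differences of -0.16 to -0.21 and 0.13 to 0.14.

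In the SyCyR(IL-23R) line compared with the parental line, 7 of 42 genes were higher and none was lower, compared with 6.34% and 8.4% of all tested probe sets (14.7% in either direction). None reached 1.5-fold, compared with 1.52% of all. The estimate was above 0 for 36 of 42, with a median of 0.07. With every array centred on its own median 12 genes were higher and the median was 0.13, while the share of all probe sets that passed in either direction was 22.3%. Bysl, or bystin, a small subunit factor, ranged only from 9.83 to 9.92 (median 9.87) in the SyCyR(IL-23R) line and from 9.35 to 9.75 (median 9.52) in the parental line. The 2 lines did not overlap, and the difference was 0.35 (SE 0.074, adjusted p 0.00086). Grwd1 ranged from 9.51 to 9.73 (median 9.57) compared with 9.15 to 9.40 (median 9.29). These arrays did not overlap either, and the difference was 0.33 (SE 0.057, adjusted p 6.8e-05).

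Nop2, the methyltransferase of large subunit RNA whose E-box is shown above, ranged from 10.39 to 10.84 (median 10.60) compared with 10.23 to 10.40 (median 10.34). The difference was 0.28 (SE 0.075, adjusted p 0.0078), with an overlap of the lowest and the highest array. Rrs1 rose by 0.27 (SE 0.081, adjusted p 0.017), with overlapping arrays. Ebna1bp2, Nip7 and Pwp2 rose by 0.25, 0.20 and 0.15, with Pwp2 at 0.14 (adjusted p 0.058) without array 16 of the parental line. Of the 7 genes, 5 belong to the large subunit (Rrs1, Nop2, Ebna1bp2, Nip7 and Grwd1) and 2 to the small subunit (Bysl and Pwp2). Fbl differed by 0.21 (adjusted p 0.057), and its second probe set by -0.02 (adjusted p 0.92). No protein of a modification particle, no nucleolar organiser and no RNA polymerase I subunit passed. Of the genes measured, 4 of the 10 with CCGGAAG in the window before the start (Nop2, Nip7, Grwd1 and Pwp2) and 2 of 27 without it were higher here, as a description without a test. In the line comparison with the natural receptor it was 4 of 10 and 12 of 27 that were lower, and between the synthetic receptor lines 4 of 10 and 10 of 27 that were higher.

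The synthetic receptor pair was also compared with the natural receptor. In the SyCyR(IL-23/2A) line minus the natural receptor line, 8 of 42 genes were higher and 2 were lower, compared with 9.55% and 8.88% of all tested probe sets (18.4% in either direction), and the median was 0.08. None reached 1.5-fold, compared with 2.62% of all. The arrays of these lines deviated together by title number, and with that number as a block 13 were higher and 3 lower (Rrs1, Tsr1 and Nop58), while 25.1% of all probe sets passed in either direction. Without arrays 15 and 16 of the SyCyR(IL-23/2A) line, 20 were higher and 1 was lower, and the median was 0.15, while 18.3% of all probe sets passed. The 5 line comparisons share arrays and are not independent of each other.

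Rrs1 was on the lower side, with the values of 8.46 to 8.79 given above compared with 8.67 to 9.36 in the natural receptor line. The difference was -0.33 (SE 0.081, adjusted p 0.0025) and -0.30 (adjusted p 0.014) without the 2 arrays. Tsr1 was the other lower gene, with a difference of -0.21 (adjusted p 0.019), or -0.13 (adjusted p 0.17) without them, and leaving out array 15 of the natural receptor line or array 15 or 16 of the other line gave -0.17 to -0.18. Mrto4, Utp20 and Grwd1 were higher by 0.30, 0.29 and 0.28 (adjusted p 0.0087, 0.0082 and 0.00032), and by 0.39, 0.42 and 0.34 without the 2 arrays. For Utp20, 6 arrays of the SyCyR(IL-23/2A) line lay between 9.82 and 10.04, and arrays 15 and 16 were at 9.35 and 9.50, within the range of the natural receptor line. Polr1c ranged from 11.22 to 11.38 (median 11.34) compared with 10.90 to 11.18 (median 11.12), without overlap, and was higher by 0.23 (SE 0.042, adjusted p 9e-05). Fbl was higher by 0.27 (adjusted p 0.0087). The second, dimmer probe set of Fbl gave 0.13 (adjusted p 0.42), and the mean of both gave 0.20 (adjusted p 0.094). Bysl, Rrp9 and Nob1 were higher by 0.26, 0.17 and 0.16, and the call for Rrp9 ended without any of 8 single arrays (0.13 to 0.16).

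In the SyCyR(IL-23R) line minus the SyCyR(IL-23/2A) line, 15 of 42 genes were higher and none was lower, compared with 4.17% and 3.58% of all tested probe sets (7.74% in either direction). None reached 1.5-fold, compared with 1.05% of all. The estimate was above 0 for 39 of 42, and the median was 0.13. Without arrays 15 and 16 of the SyCyR(IL-23/2A) line, 8 genes were higher and the median was 0.06, while 6.9% of all probe sets passed in either direction. With title number as a block 19 genes were higher and 1 was lower, beside 13.4% of all probe sets. The lower gene was Polr1c (-0.13, adjusted p 0.018).

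Rrs1 had the widest difference of the 42 genes in any line comparison. It ranged from 8.96 to 9.50 (median 9.26) in the SyCyR(IL-23R) line, above all arrays of the SyCyR(IL-23/2A) line at 8.46 to 8.79. The difference was 0.58 (SE 0.081, n = 8 and 8), or 1.49-fold, with an adjusted p of 4e-06, and it was 0.55 (adjusted p 6.4e-05) without the 2 arrays. Nop2 was higher by 0.41 (SE 0.075, adjusted p 0.00024), again without overlap of the lines, and by 0.33 (adjusted p 0.0035) without the 2 arrays. Tsr1 was higher by 0.39 (SE 0.066, adjusted p 8.2e-05) and by 0.31 (adjusted p 0.0011) without them. Gnl3 ranged from 11.11 to 11.65 (median 11.38) compared with 10.83 to 11.24 (median 10.98). It was higher by 0.37 (SE 0.087, adjusted p 0.0044) and by 0.33 (adjusted p 0.029) without the 2 arrays.

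The other genes that passed between the synthetic receptor lines came from several roles. Rrp1b, Grwd1, Nip7 and Pes1 of the large subunit were higher by 0.35, 0.30, 0.28 and 0.13. Bysl, Wdr43, Wdr75 and Pwp2 of the small subunit were higher by 0.29, 0.29, 0.20 and 0.15. Polr1b was higher by 0.26, and Nop58 and Nop56 by 0.25 and 0.22. Of these, 7 did not pass without the 2 arrays. They were Polr1b (0.15, adjusted p 0.065), Bysl (0.18, adjusted p 0.085), Nop58 (0.18, adjusted p 0.088), Nop56 (0.14, adjusted p 0.14), Wdr75 (0.12, adjusted p 0.18), Pes1 (0.10, adjusted p 0.2) and Pwp2 (0.09, adjusted p 0.27). The call for Wdr75 ended without either one of them (0.16 and 0.17), that for Pwp2 without any of 9 single arrays (0.12 to 0.15) and that for Pes1 without any of 16 (0.11 to 0.13). Fbl differed by -0.02 (interval -0.17 to 0.14), and none of the box H/ACA proteins passed in this or any other line comparison. Ncl, Npm1 and Bop1 passed in none of the 5 either. For Npm1 all 5 differences lay between -0.06 and 0.04. Nolc1 and Ddx21, the remaining nucleolar organisers, did not pass in any line comparison.

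**Figure D3:**
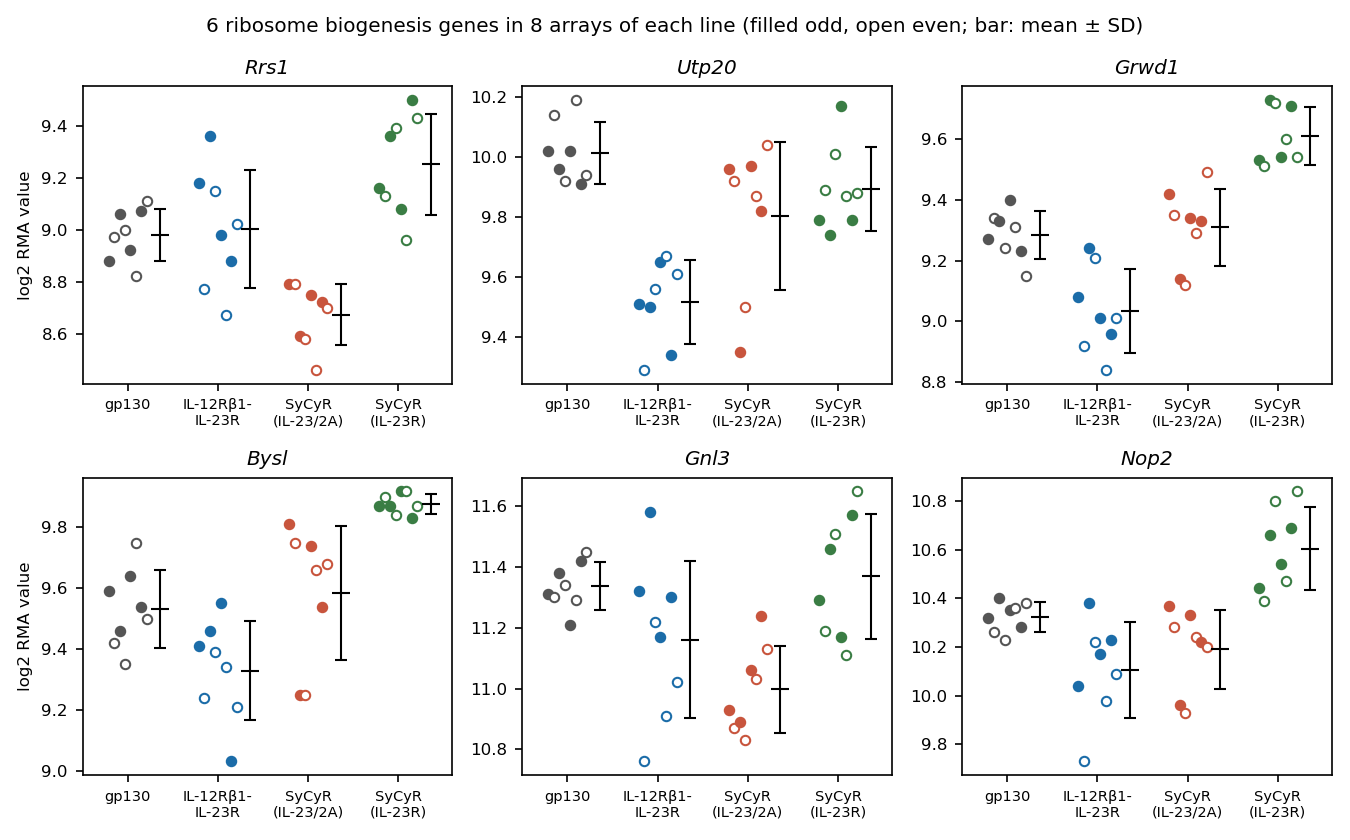
Log2 RMA values of Rrs1, Utp20, Grwd1, Bysl, Gnl3 and Nop2 in the 8 arrays of each line, with filled points for odd and open points for even title numbers and bars for mean and SD. Rrs1 has no overlap between the 2 synthetic receptor lines, Utp20 none between the parental line and the natural receptor line, and Bysl none between the SyCyR(IL-23R) line and any other line.

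The second question was whether arrays with odd and even title numbers differ within a line, with 4 arrays on each side. None of the 42 genes passed in any of the 4 lines. The shares of all tested probe sets that passed were 0% in the parental line, 3.12% in the natural receptor line, 0.953% in the SyCyR(IL-23/2A) line and 0.175% in the SyCyR(IL-23R) line. An unadjusted limma p under 0.05 was found for 0, 3, 0 and 0 of the 42 genes, compared with 1.11%, 17.4%, 6.88% and 3.53% of all tested probe sets. The median differences of the 42 genes were 0.01, 0.03, -0.03 and 0.00. The 95% confidence interval lay within 1.5-fold in both directions for 42, 41, 42 and 42 genes, and within 1.2-fold for 33, 16, 28 and 32.

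Gnl3 was the gene with the widest odd minus even difference. In the natural receptor line its odd arrays 13, 15, 17 and 19 had 11.32, 11.58, 11.17 and 11.30, and the even arrays 14, 16, 18 and 20 had 10.76, 11.22, 10.91 and 11.02. The odd array was higher in each of the 4 consecutive pairs, while the 2 groups overlapped, and the difference was 0.36 (adjusted p 0.072). With consecutive title numbers taken as pairs, an assumption that no label states, it was 0.36 (SE 0.088, adjusted p 0.0093). In that fit Rrp1b (0.27, adjusted p 0.029) and Nop58 (0.24, adjusted p 0.034) passed in this line as well, and none of the 42 in the other 3 lines. The 3 genes are 7.14% of the 42, beside 6.83% of all probe sets in the same fit. In the fit without pairs, Gnl3 passed without array 16 (0.45, adjusted p 0.029) and without array 17 of this line (0.42, adjusted p 0.044). The odd array was higher in 4 of 4 consecutive pairs for 4, 10, 2 and 1 of 42 genes in the 4 lines and lower in 4 of 4 for 3, 3, 6 and 1. The same was not counted over all probe sets, so these counts do not set the 42 genes apart from others. None of the 42 genes passed in any of the 5 tests of whether the odd minus even difference differs between lines, taken in the order of the line comparisons above. Of all tested probe sets, 1.2%, 0.402%, 0.0982%, 0.111% and 0.0812% passed in these. An unadjusted limma p under 0.05 was found for 2 genes in the first of these tests, compared with 9.94% of all probe sets, and for none in the other 4, compared with 3.97%, 2.49%, 2.97% and 2.47%.

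Myc and its relative Mycn, known activators of this programme, were compared in the same way. Myc had 13.20, 13.37, 13.12 and 13.27 on the odd arrays of the natural receptor line and 12.48, 12.75, 12.18 and 12.44 on the even ones. All odd arrays were above all even ones, with a difference of 0.78 (SE 0.10, adjusted p 1.9e-06). In the SyCyR(IL-23/2A) line Myc was higher on the odd arrays by 0.48 (adjusted p 0.0069). The difference was 0.41 in the SyCyR(IL-23R) line (adjusted p 0.14, no overlap) and 0.08 in the parental line (adjusted p 1). Mycn was higher on the odd arrays by 1.53, 1.40 and 0.90 in the 3 receptor lines (adjusted p 4.9e-07, 6.3e-06 and 0.018) and differed by 0.15 in the parental line (adjusted p 1). Its call in the SyCyR(IL-23R) line ended without any of 5 single arrays of that line (0.79 to 0.89). In the tests between lines, the odd minus even difference was larger in the natural receptor line than in the parental line by 0.70 for Myc (adjusted p 0.0039) and by 1.39 for Mycn (adjusted p 0.0014).

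**Figure D4:**
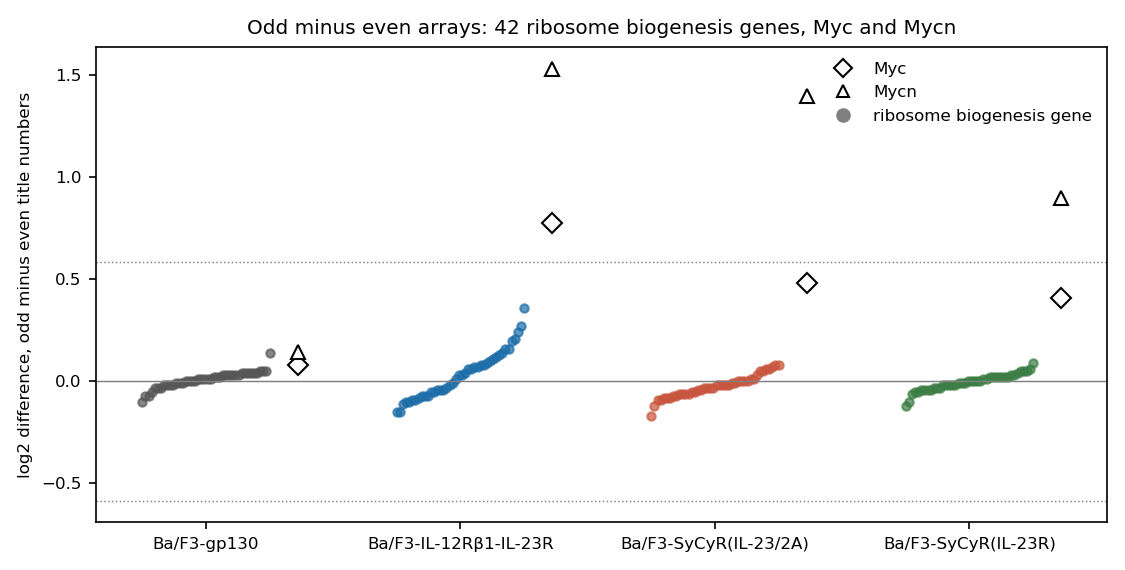
Log2 difference of odd minus even title numbers (means of 4 and 4 arrays) in each line for the 42 genes (circles, sorted), Myc (diamonds) and Mycn (triangles), with dotted lines at 1.5-fold. The circles stay between -0.17 and 0.36, and Mycn reaches 1.53 in the natural receptor line.

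Over all 8 arrays Myc was higher in the natural receptor line than in the parental line by 0.40 (adjusted p 0.042), in the comparison in which 16 of the 42 genes were lower. Mycn was higher there by 0.96 (adjusted p 0.022). Both differences lay mainly in the odd arrays. On these, mean Myc was 13.24 in the natural receptor line and 12.49 in the parental line, and mean Mycn 11 and 9.35. On the even arrays the means were 12.46 and 12.41 for Myc and 9.47 and 9.2 for Mycn. The even arrays alone were not tested between lines. The call for Myc ended without any of 10 single arrays (0.33 to 0.41), and that for Mycn without array 13, 15 or 19 of the natural receptor line (0.80 to 0.85). Without arrays 17 and 18 of every line neither passed (adjusted p 0.071 and 0.059). Of 43 alternatives, single arrays left out included, Myc passed in 29 and Mycn in 38. The fit by line leaves number parity out, so the odd minus even difference counts as spread in the p-values of this paragraph. In a fit with 8 groups of line and parity both passed. In the SyCyR(IL-23/2A) line Myc was lower than in the natural receptor line by 0.50 (adjusted p 0.0095), where 8 of the 42 genes were higher and 2 lower, and Mycn differed by -0.02. Compared with the parental line, Myc differed there by -0.09 (adjusted p 0.78) and Mycn by 0.94 (adjusted p 0.059). In the SyCyR(IL-23R) line minus the parental line Mycn was higher by 1.24 (adjusted p 0.0037) and Myc differed by 0.20 (adjusted p 0.39). Between the synthetic receptor lines, where 15 of the 42 genes differed, Myc and Mycn each differed by 0.30 and did not pass (adjusted p 0.24 and 0.72).

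A wider list of 109 other ribosome biogenesis genes, of which 105 were measured, showed 32 lower and 2 higher in the natural receptor line minus the parental line, with a median of -0.10. The other 4 follow in the order of comparisons used above. They gave 0 higher and 5 lower, 15 higher and 1 lower, 21 higher and 7 lower, and 23 higher and 0 lower. Over the 5 line comparisons, 7.48%, 2.35%, 6.34%, 9.55% and 4.17% of all tested probe sets passed on the higher side. On the lower side the shares were 10.4%, 3.88%, 8.4%, 8.88% and 3.58%. Urb1, a large subunit factor, was lower in the natural receptor line than in the parental line by 1.67-fold (log2 difference -0.74, adjusted p 5.6e-12), Polr1e, an RNA polymerase I subunit, by 1.55-fold (-0.63, adjusted p 5.2e-10) and Lsg1, a GTPase of late large subunit maturation, by 1.46-fold (-0.55, adjusted p 4.4e-14). Urb1 and Lsg1 lie on chromosome 16, where the median difference of 334 genes with means above 7.04 was -0.41 in the same comparison. None of the 42 genes lies on that chromosome. Taf1a, which belongs to the initiation factor of RNA polymerase I, was higher in the SyCyR(IL-23R) line by 0.42 than in the parental line (adjusted p 6.4e-07) and by 0.47 than in the SyCyR(IL-23/2A) line (adjusted p 1.4e-07). In odd minus even, 1 of the 105 genes passed. This was Rpp38, a subunit of RNase P and RNase MRP, in the natural receptor line (0.43, adjusted p 0.0013). In that line 3.12% of all tested probe sets passed.

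Ribosomal proteins are the building blocks with which these factors work. Of 79 genes listed, 55 had a probe set of their own. In the same order of comparisons, 0 higher and 2 lower, 0 and 6, 0 and 11, 1 and 7, and 0 and 0 passed. The shares of all tested probe sets are those given for the wider list. In the SyCyR(IL-23R) line minus the parental line, 11 ribosomal protein genes were thus lower while 7 ribosome biogenesis genes were higher. Rpl12 was the ribosomal protein gene with the widest difference there, at -0.35 (adjusted p 0.027). Between the synthetic receptor lines the 55 ribosomal protein genes had differences between -0.05 and 0.15 and a median of 0.00.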

How the data were processed

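RNA of 32 samples was hybridised to Affymetrix Mouse Gene ST 1.0 arrays. The deposited table holds log2 values that the authors made in Expression Console by RMA with sketch-quantile normalization. The version, and the genome build of the probe sets, are not given in the sources used here. RMA with this step brings the arrays towards a common distribution, so a shift of all genes in the cells cannot be read from the values. The medians of the deposited arrays still ranged from 6.94 to 7.18. Counts with the arrays centred on their medians are given below. Single-symbol probe sets came from the platform annotation (21789 probe sets with 1 symbol, 1621 with several, 12146 with none), and a gene with several was represented by the brightest.

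Groups came from the sample titles. limma 3.58.1 in R 4.3.3 (lmFit, eBayes) was fitted to all 23410 probe sets with a symbol, with 4 lines or with 8 groups of line and number parity, and p-values were adjusted by Benjamini-Hochberg within a comparison. Leaving out arrays 15 and 16 of the SyCyR(IL-23/2A) line was added after seeing the data. The genes and lists, and the split by number parity, were chosen with earlier results of these data known. Genes named in full were the 4 with the widest difference among those passing in a comparison, and Rrs1, Nop56, Fbl, Ncl, Npm1, Polr1b and Bop1. Other lists gave up to 3 genes each, and Myc. The fits were tested first on simulated data with independent arrays and 50 changed genes per size. A 1.2-fold change was recovered for 60% in a line comparison, 12% in odd minus even and 4% in its difference between lines. For 1.5-fold it was 100%, 82% and 60%. False calls were 4.96%, 7.62% and 3.61% of the calls. The latter 2 tests would thus miss most small changes. The number of arrays limits the precision.

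Same-numbered arrays deviated together for the SyCyR(IL-23/2A) line with the natural receptor line (lowest correlation of deviations 0.374) and with the SyCyR(IL-23R) line (0.193), and less evenly for the 3 receptor lines with the parental line (lowest -0.068, -0.039 and -0.01, medians 0.253 to 0.296). With the parity means removed as well, the lowest values were 0.115 and 0.072 for the former and 0.112, 0.088 and 0.072 for the latter. This pairing rests on the values and on no label. Figures were drawn in Python 3.11.15 with matplotlib 3.10.9.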

Additional observations from a re-analysis of the deposited data

Results flagged for a closer look

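In 172 groups of 8 arrays (the 42 genes, and Myc, in each line), 3 had an array whose gap to the next one exceeded Dixon's 95% limit of 0.526 of the range, while about 9 would be flagged by chance. Nob1 was at 10.93 on array 19 of the natural receptor line and at 11.13 on the next lowest array (ratio 0.617). Ncl was at 12.66 on array 15 of the SyCyR(IL-23/2A) line, with 12.93 next (0.556). Heatr1 was at 10.96 on array 17 of the SyCyR(IL-23R) line, with 10.72 next (0.531). The odd minus even difference differed between lines for Myc (0.70 larger in the natural receptor line than in the parental line) and for Mycn (1.39 larger in that line and 1.25 larger in the SyCyR(IL-23/2A) line than in the parental line, adjusted p 0.0014 and 0.012, limma).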

How the results depend on the processing

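With title number as a replicate block, genes that passed rose from 16 to 21, 6 to 13, 7 to 11, 10 to 16 and 15 to 20 in the 5 line comparisons (in the order of the report), while the shares of all probe sets that passed rose to 24.5%, 13.3%, 22.4%, 25.1% and 13.4%. The directions with the block were 0 higher and 21 lower, 3 and 10, 10 and 1, 13 and 3, and 19 and 1. The counts stayed at 0 in all odd minus even tests. Centring arrays on their medians gave 10, 4, 12, 10 and 15, beside 15.2%, 6.04%, 22.3%, 16.1% and 6.13% of all. Leaving out arrays 15 and 16 of the SyCyR(IL-23/2A) line, chosen after seeing the data, gave 19, 1, 8, 21 and 8, beside 18.1%, 5.2%, 15%, 18.3% and 6.9%. The requirement of 1.5-fold, alone or with an unadjusted p of at most 0.01, left 0 in each. Leaving out arrays 17 and 18 of every line gave 12, 5, 8, 12 and 14, beside 15.6%, 4.84%, 11.8%, 16.2% and 6.56%. Consecutive numbers as pairs gave 3 (beside 6.83% of all) instead of 0 for odd minus even in the natural receptor line. In the line comparisons they gave 13, 4, 7, 9 and 13, beside 15.4%, 4.19%, 11.9%, 15.8% and 6.08% of all. The cause of these changes was not tested. Leaving out 1 array at a time gave 11 to 19, 4 to 7, 6 to 8, 9 to 13 and 12 to 16 genes, 0 to 1 for odd minus even in the natural receptor line, and 0 in the other odd minus even tests. All other alternatives stayed within 1.5 times of the counts. Of 66 passing results of single genes, Myc and Mycn included, none changed direction, and 662 of 718 values under 11 alternatives and 1997 of 2112 with 1 array left out still passed. The 2112 include arrays of lines outside a comparison. Leaving these out changes the shared estimate of spread and not the difference, so such calls end less readily. Some calls near the threshold still ended. Polr1c in the SyCyR(IL-23/2A) line minus the parental line did so without array 16 of the natural receptor line. Pes1 between the synthetic receptor lines did so without array 14 of the parental line.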
